A study of Mus musculus with 12 samples.

Results

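The 40 imprinted genes described here are a chosen list and not all imprinted genes on the array. Each has a probe with its symbol on a single-color Agilent mouse array and an established expressed parental copy. Of the 40, 17 are expressed from the maternal and 23 from the paternal chromosome. A probe entered when each of the 3 arrays of some group had it well above background, and such probes were averaged per gene, which gave a level for 38 of the 40, 16 maternally and 22 paternally expressed, among 18266 genes tested. The arrays measured hypothalamus RNA of 12 male mice on a C57BL/6 background, labelled as 6 to 7 weeks old, 3 per group: unexercised wild-type (WT) and Asmt-knockout (KO) controls, exercised wild-type mice (exercised WT) and exercised Asmt-knockout mice (KE). The knockout was homozygous and made with Cas9, which left a small deletion in Asmt, and its founders were crossed to wild-type mice. Exercise was swimming. By the paper, swimming began at the age of 6 to 7 weeks, with a week of adaptation and then some weeks of regular training. The labelled age is thus the age at the start of swimming, and the mice were older when tissue was taken. Asmt encodes the last enzyme of melatonin synthesis, and the study compared what swimming did with and without it. As a limit of the model, the study's own text notes that C57BL/6J mice already have an inborn deficiency of Asmt. Asmt itself had 1 probe, which was well above background on 0 of the 12 arrays, so the genotype labels could not be checked on its signal.

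Imprinted genes are marked in the germ line by DNA methylation at control regions and are afterwards transcribed mainly or wholly from the copy of 1 parent. They lie in clusters in which maternally and paternally expressed genes, and often a long noncoding RNA, share a control region. Many are strongly expressed in the hypothalamus, where Magel2, Ndn and Snrpn of the Prader-Willi region, Peg3, Dlk1 and Gnas are known for roles in feeding, growth and maternal care. The arrays read the sum of both parental copies, so the parental class is the textbook class of the gene and was not measured. For Ube3a it holds in neurons, for Grb10 the paternal copy is the one used in neurons, and Igf2 is known to be expressed from both copies in the choroid plexus and the meninges. The Gnas probes cover a locus with maternal, paternal and biparental transcripts, and of Inpp5f only a short variant that starts inside the gene is imprinted.

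Of 18 hypothalamic marker genes 18 were tested, and their summed linear signal ranged from 269662 to 329980. Apart from Sim1, each was well above background on all 12 arrays. Sim1 was so on 9, at 4.10 to 5.08 in WT and KO replicates 1 and 2 and 6.21 to 7.23 on the other arrays. Markers of adjoining tissue were present as well. The summed signal of 12 meningeal genes was 18910 on KO replicate 2 and 8678 to 13034 on the other arrays, and that of the 11 tested choroid plexus genes was 7344 on that array and 4914 to 6358 on the others. exercised WT replicate 3 had the highest sums of 10 striatal genes, 14630 against 9347 to 10798, and of 10 tested cortical and thalamic genes, 14263 against 7187 to 11077. Of 11 anterior pituitary genes 3 were tested, with a sum of 397 to 644, and Gh, Pou1f1 and Ghrhr were well above background on 0 arrays. The arrays lay on 2 slides that were scanned separately. Slide 1 held the 3 WT mice with KO replicates 1 and 2, and slide 2 held KO replicate 3 with all exercised WT and KE mice. The first principal component of all genes took 42.7% of the variance and placed KO replicate 3 at 23.1, on the side of the exercise groups (11.0 to 19.7) and away from the slide 1 arrays (-27.9 to -16.7). KE against exercised WT therefore lies wholly within slide 2. In KE against KO and in exercised WT against WT swimming and slide run together, apart from KO replicate 3, so the named differences are given below also with the slide as a block. That block takes the shift between slides from KO replicate 3 against the other KO mice, and so depends on the label of that mouse, which could not be checked either.

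The sequences of 2 long noncoding RNAs are given because a result turns on each. Kcnq1ot1, the paternally expressed antisense RNA that silences genes of the Kcnq1 domain, had the smallest p of any member in a comparison, and its 4 tested probes lie at different places along the transcript, all on the minus strand of chromosome 7 (build mm9). In the order of the list they map to chr7:150399016-150399052 (an annotated stretch shorter than the probe), chr7:150409006-150409065, chr7:150410464-150410523 and chr7:150440140-150440199. The maternally expressed Rian had 2 tested probes on the plus strand of chromosome 12 that differed in opposite directions between slides, annotated to chr12:110865343-110872442 (a span that contains an intron) and chr12:110899840-110899899. Capitals mark a run of at least 20 bases that also stands in another probe of the array, which held for 2 of the 91 member probes.
Kcnq1ot1 A_55_P2717618: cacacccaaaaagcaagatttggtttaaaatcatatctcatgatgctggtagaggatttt
Kcnq1ot1 A_55_P2726757: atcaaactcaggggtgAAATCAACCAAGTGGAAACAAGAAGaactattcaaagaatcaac
Kcnq1ot1 A_55_P2726560: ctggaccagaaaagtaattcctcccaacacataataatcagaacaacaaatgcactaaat
Kcnq1ot1 A_55_P2408415: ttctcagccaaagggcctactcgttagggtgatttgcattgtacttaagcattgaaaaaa
Rian A_55_P2741381: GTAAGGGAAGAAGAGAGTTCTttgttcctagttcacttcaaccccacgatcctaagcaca
Rian A_55_P2723831: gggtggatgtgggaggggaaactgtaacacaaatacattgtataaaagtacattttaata
The array probe that shares 25 bases with Kcnq1ot1 A_55_P2726757 had a normalized log2 signal of 1.82 to 4.48, and the one that shares 21 bases with Rian A_55_P2741381 had 9.76 to 10.52. Neither carries a gene symbol.

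Promoters are shown for 4 paternally expressed genes of chromosome 7 (RefSeq sequence, assembly GRCm38.p6). Peg12, Ndn and Magel2 are neighbours in the Prader-Willi region, and their signal behaved differently across the arrays, as given below. Each run reads 5′ to 3′ on the strand of the gene and ends just before its start, except that of the noncoding Kcnq1ot1, which includes 50 bases after it. Capitals mark each CG, the dinucleotide that carries imprint methylation; no methylation was measured here. The windows are chr7:143296498-143296797 (minus strand) for Kcnq1ot1 with 9 CG, chr7:62464511-62464760 (minus) for Peg12 with 8, chr7:62348027-62348276 (plus) for Ndn with 5 and chr7:62376729-62376978 (plus) for Magel2 with 7.
Kcnq1ot1: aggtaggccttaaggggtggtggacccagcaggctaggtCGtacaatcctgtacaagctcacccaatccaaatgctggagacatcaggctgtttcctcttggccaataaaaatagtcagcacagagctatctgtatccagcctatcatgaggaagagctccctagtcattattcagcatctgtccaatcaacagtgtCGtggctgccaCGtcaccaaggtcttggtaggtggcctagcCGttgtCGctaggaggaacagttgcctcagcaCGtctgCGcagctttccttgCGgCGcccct
Peg12: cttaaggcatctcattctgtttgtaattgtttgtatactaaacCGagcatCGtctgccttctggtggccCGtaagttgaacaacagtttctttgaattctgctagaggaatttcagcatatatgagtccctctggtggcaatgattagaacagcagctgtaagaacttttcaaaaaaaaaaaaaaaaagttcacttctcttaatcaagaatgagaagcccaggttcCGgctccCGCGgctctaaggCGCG
Ndn: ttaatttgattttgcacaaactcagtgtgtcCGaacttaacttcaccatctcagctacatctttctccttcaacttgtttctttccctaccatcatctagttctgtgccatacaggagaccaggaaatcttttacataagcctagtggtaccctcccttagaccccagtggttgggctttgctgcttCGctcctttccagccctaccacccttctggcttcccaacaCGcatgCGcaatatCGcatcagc
Magel2: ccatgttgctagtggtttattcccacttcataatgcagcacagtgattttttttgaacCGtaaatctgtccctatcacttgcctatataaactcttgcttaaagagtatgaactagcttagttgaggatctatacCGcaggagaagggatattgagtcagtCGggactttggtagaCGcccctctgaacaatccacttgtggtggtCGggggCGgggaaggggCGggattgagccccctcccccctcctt
Of the 40 members, 33 had promoter windows in the RefSeq table, 50 windows in all. The hexamer TGCCGC, the letters read by the imprint-protecting zinc finger protein ZFP57, stood on either strand in 12 of these 50 windows (24.0%) and in 3813 of 32851 windows of all genes (11.6%). The 12 windows belong to 11 of the 33 genes, since 2 nearly identical windows of Mest both count. The windows of members held a median of 13.5 CG and those of all genes 7. The hexamer itself contains a CG, and the shares were not adjusted for CG content. A match here describes the letters only, since 300 bases around a start site need not hold the imprint control region.

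Each of the 38 tested members had a probe well above background on all 12 arrays. The other 2 were close to background: the single probe of Rtl1, a retrotransposon-derived gene opposite Dlk1 and Meg3, was well above it on 2 arrays (WT replicate 1 and KO replicate 2), and that of Phlda2, a growth-limiting gene known mainly from placenta, on 0. Levels below are normalized log2 signals, on which 1 unit is a doubling, and a level is compared only between arrays for the same gene. Snrpn varied least, over a range of 0.19 across the 12 arrays, followed by Blcap (0.20), Igf2r (0.22), Rasgrf1 (0.22) and Magel2 (0.23). Peg12 and H19 varied most, each over 1.25, followed by Kcnq1ot1 over 1.04.

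**Figure D1:**
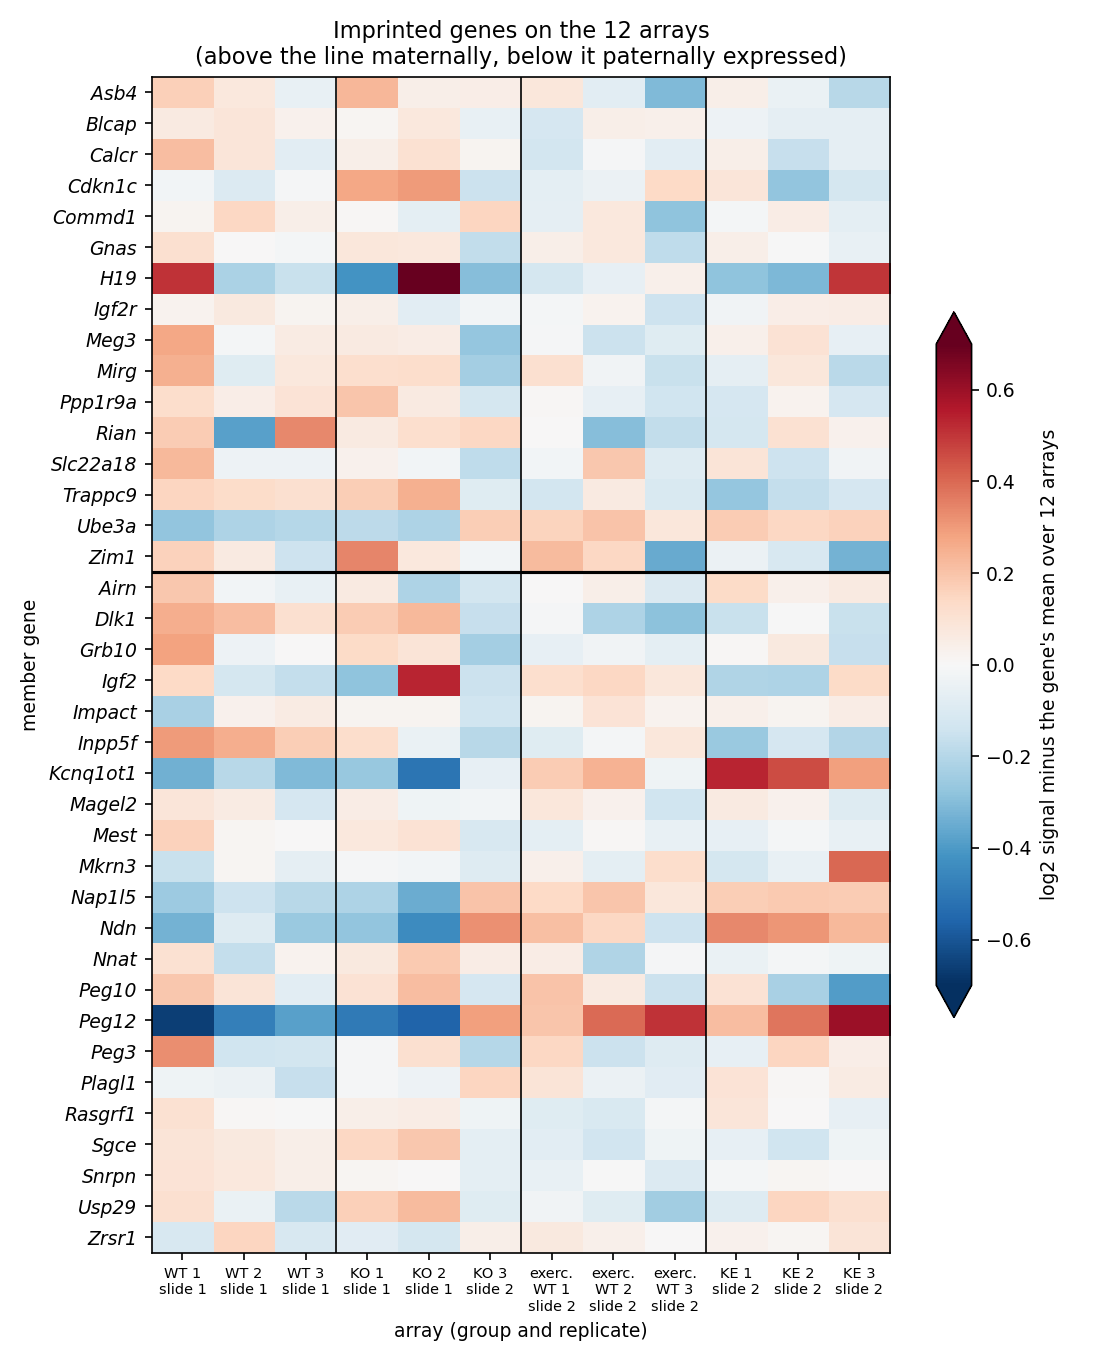
Heat map of the 38 tested imprinted genes (rows, maternally and paternally expressed apart) on the 12 arrays (columns, by group and slide); color is the normalized log2 signal minus the mean of the gene over all arrays. Peg12, Nap1l5 and Ube3a are above their mean on KO replicate 3 and on the exercise arrays, and below it on WT and on KO replicates 1 and 2, and Kcnq1ot1 is highest in the 3 KE mice.

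In the Prader-Willi and Angelman region of chromosome 7, the 6 tested members were not alike. Peg12, which encodes a protein that inhibits GSK3, had 7.50, 7.68 and 7.78 in WT, 7.67, 7.60 and 8.44 in KO, 8.35, 8.56 and 8.66 among exercised WT mice, and 8.38, 8.53 and 8.76 in KE. Ndn, encoding the neuronal growth suppressor necdin, had 15.20, 15.44 and 15.27 in WT, 15.25, 15.09 and 15.85 in KO, 15.74, 15.67 and 15.39 among exercised WT mice, and 15.87, 15.84 and 15.76 in KE. In both genes KO replicate 3 stood apart from the other KO mice, by 0.81 for Peg12 and 0.68 for Ndn, and lay within or near the exercise groups. Ube3a, the ubiquitin ligase lost in Angelman syndrome and the maternally expressed member here, had 9.93 to 10.02 on the 5 arrays of slide 1 and 10.29 to 10.41 on the 7 of slide 2. Magel2, a regulator of protein recycling in hypothalamic neurons, had group means of 13.20 ± 0.11 in WT, 13.19 ± 0.04 in KO, 13.18 ± 0.12 among exercised WT mice and 13.19 ± 0.08 in KE (SD, n = 3). Its group means thus differed by less than the SD of WT, although it lies between Ndn and Peg12. Snrpn, which encodes a splicing protein, had 14.84 ± 0.03 in WT, 14.75 ± 0.04 in KO, 14.72 ± 0.05 among exercised WT mice and 14.77 ± 0.01 in KE (SD, n = 3). The ubiquitin ligase gene Mkrn3, known as a brake on puberty, had group means of 5.17, 5.20, 5.27 and 5.32 in the same order.

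In the Igf2 to Kcnq1 domain, also on chromosome 7, Kcnq1ot1 had 9.64, 9.78 and 9.67 in WT, 9.71, 9.46 and 9.92 in KO, 10.15, 10.22 and 9.94 among exercised WT mice, and 10.50, 10.43 and 10.26 in KE. Each KE mouse was above each mouse of the other groups, and each exercised WT mouse was above each WT mouse. The share of all genes with such a separation was not counted. Cdkn1c, a cell cycle inhibitor that Kcnq1ot1 silences on the paternal chromosome, had 10.78, 10.71 and 10.80 in WT, 11.08, 11.10 and 10.65 in KO, 10.74, 10.76 and 10.94 among exercised WT mice, and 10.89, 10.53 and 10.69 in KE. Its highest levels were those of KO replicates 1 and 2. The organic cation transporter gene Slc22a18 had group means between 6.60 and 6.71. Igf2, a growth factor, and the noncoding RNA H19 beside it were both highest on KO replicate 2, at 7.58 and 6.32, against 6.77 to 7.20 and 5.07 to 6.00 elsewhere. That array also had the highest sums of the meningeal and choroid plexus markers. The choroid plexus genes did not all peak there, as Ttr had 7.36 on KO replicate 2 and 8.66 on exercised WT replicate 2. Their median log2 deviation from each gene's mean was 0.32 and 0.34 on these arrays. The part of the meninges and choroid plexus in the Igf2 and H19 signal was not tested. In tissue RNA of this kind, fewer cells of a type and less RNA per cell cannot be told apart. Without KO replicate 2 the log2 fold change of KO against WT went from 0.09 to -0.16 for Igf2 and from -0.0036 to -0.40 for H19. The adjusted p without that array was 0.658 and 0.641 in limma.

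In the Dlk1 to Meg3 domain of chromosome 12, Dlk1, which encodes a Notch-family ligand that holds back fat cell formation, had 12.81 to 12.95 on slide 1 and 12.42 to 12.70 on slide 2, with KO replicate 3 at 12.54. The domain also holds maternally expressed noncoding RNAs. Meg3 had group means of 14.98 ± 0.15 in WT, 14.82 ± 0.19 in KO, 14.80 ± 0.07 among exercised WT mice and 14.90 ± 0.08 in KE (SD, n = 3), and its lowest array was KO replicate 3 at 14.60. Mirg, a host of microRNAs, had means between 12.29 and 12.43. The mean of Rian lay between 10.28 and 10.54, but its 2 probes parted on KO replicate 3, at 8.95 for the first and 12.21 for the second, so the mean hides opposite shifts.

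In the Peg10 to Sgce domain of chromosome 6 the 5 members are Peg10, a retrotransposon-derived placental gene, Sgce, which encodes a sarcoglycan lost in myoclonus dystonia, the calcitonin receptor gene Calcr, Asb4, found in hypothalamic neurons, and the spine protein gene Ppp1r9a. Their log2 fold changes ran from -0.16 to -0.03 in exercised WT against WT, where 0 of 5 had an unadjusted p under 0.05, and from -0.24 to -0.11 in KE against KO, where 1 did, Sgce. Of all genes 58.4% and 60.2% had negative values in these comparisons. In the fit with the slide as a block 2 of 5 and 4 of 5 members were negative, and Sgce had 0.09 and -0.01. Trappc9, a trafficking gene of chromosome 15 and outside these clusters, had 10.04, 10.02 and 10.01 in WT, 10.07, 10.14 and 9.81 in KO, 9.77, 9.96 and 9.79 among exercised WT mice, and 9.63, 9.73 and 9.78 in KE. Its slide 2 arrays were all below its slide 1 arrays.

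Among the genes outside these clusters, Nap1l5, an intronless nucleosome assembly gene inside an intron of Herc3, had 14.73 to 14.93 on slide 1 and 15.16 to 15.28 on slide 2. Inpp5f, a phosphoinositide phosphatase gene, had 9.69, 9.65 and 9.57 in WT, 9.52, 9.35 and 9.20 in KO, 9.31, 9.38 and 9.47 among exercised WT mice, and 9.14, 9.28 and 9.19 in KE. All WT mice were above all other mice for Inpp5f, and all KE mice were below all exercised WT mice. This average joins a dim probe at -0.58 in exercised WT against WT and a bright one at 0.08. How many of all genes part the groups in this way was not counted. In the Peg3 domain the paternal zinc finger gene Peg3 had group means between 10.75 and 10.83, the ubiquitin protease gene Usp29 between 8.63 and 8.86 and the maternal zinc finger gene Zim1 between 7.49 and 7.78. The scavenging receptor gene Igf2r had means between 10.95 and 11.03 and its antisense RNA Airn between 7.02 and 7.20. The means of the other members lay between 8.53 and 8.63 for the hydrolase gene Mest, 7.55 and 7.68 for the growth factor adaptor gene Grb10, 10.25 and 10.38 for the zinc finger gene Plagl1, 15.23 and 15.32 for Impact, a regulator of translation, and 9.89 and 9.99 for the Ras exchange factor gene Rasgrf1. In the pair of Zrsr1, a splicing factor gene, and Commd1, its host, means lay between 12.92 and 13.02 and between 8.82 and 8.98. Means also stayed within 11.77 and 11.83 for Gnas, the stimulatory G protein locus, within 14.52 and 14.67 for Nnat and within 14.82 and 14.93 for Blcap, the gene that hosts it.

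**Figure D2:**
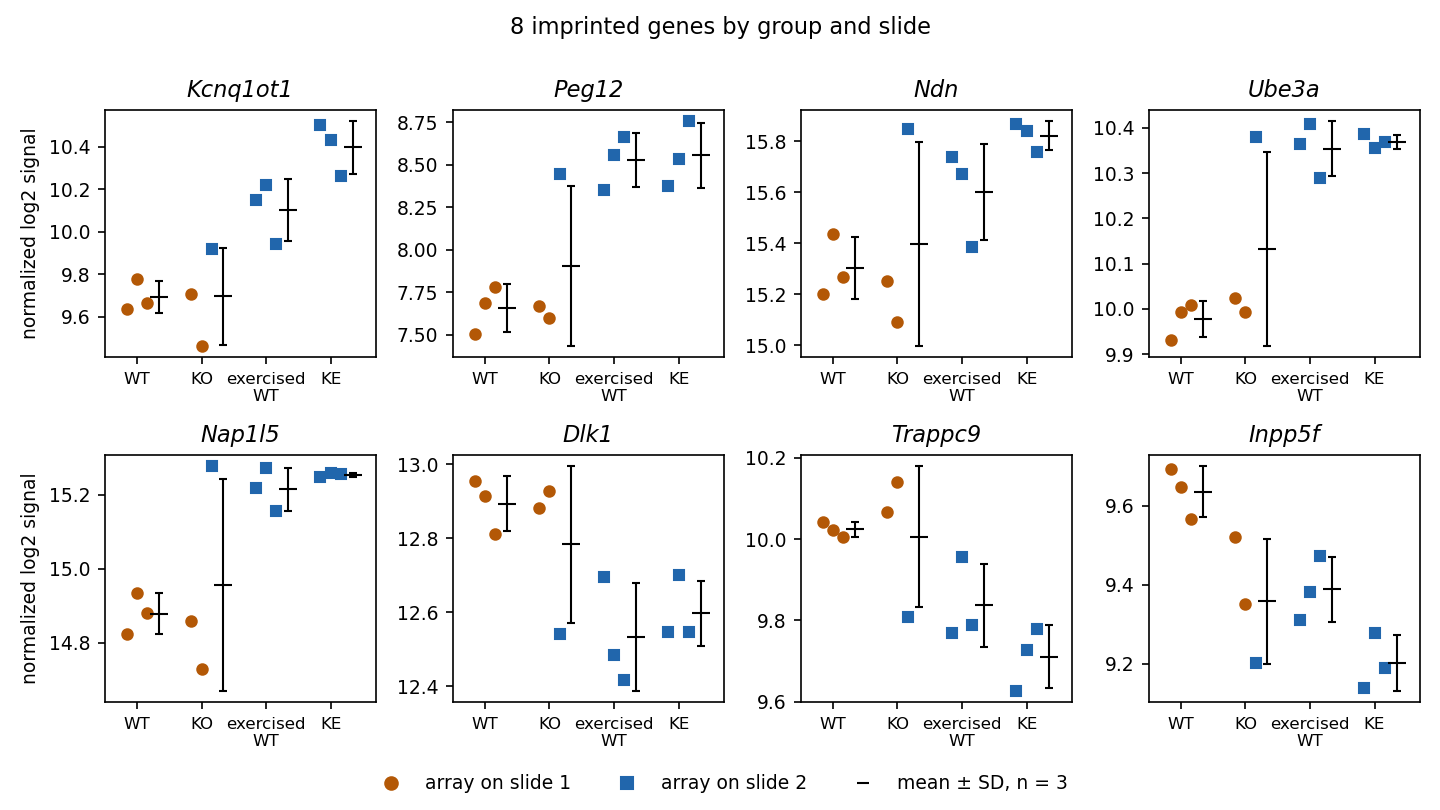
Normalized log2 signal of 8 imprinted genes in each mouse, by group; circles are arrays of slide 1, squares arrays of slide 2, and the bars give mean ± SD (n = 3). Peg12, Ndn, Ube3a and Nap1l5 of KO replicate 3 lie near the exercise groups, and Kcnq1ot1 is highest in the 3 KE mice.

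Loss of Asmt without exercise, KO against WT, came with small differences in these genes. The log2 fold changes of the 38 members ran from -0.28 to 0.25, with 16 positive and 22 negative, where 46.9% of all genes were positive. Their median was -0.03 over maternally and 0.00 over paternally expressed members against -0.01 over all genes. Inpp5f was lower in KO by a log2 fold change of -0.28 (SE 0.08), at an adjusted p of 0.839 in limma. After Benjamini-Hochberg adjustment 0 members and 0% of all genes passed. At an unadjusted p under 0.05, 0 members were higher and 1 of 38, Inpp5f, was lower, where 2.68% of all genes were higher and 2.79% lower. The screening criterion of the study, a change of 2-fold or more in either direction with that p, was met by 0 members and 0.175% of all genes. Snrpn (-0.09, SE 0.04) and Ube3a (0.16, SE 0.09) came next by p and did not pass at the unadjusted threshold either. With the slide as a block, which sets KO replicates 1 and 2 against WT, Inpp5f had -0.20 and Cdkn1c 0.33, the 2 members with an unadjusted p under 0.05 (5.86% of all genes in either direction), with adjusted p of 0.791 and 0.736 in limma. In that fit the direction count turned, to 24 members positive and 14 negative, where 51.2% of all genes were positive. The medians there were 0.04 over maternally and 0.02 over paternally expressed members.

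In wild-type mice, exercised WT against WT set the swimming mice of slide 2 against controls of slide 1. Peg12 was higher in exercised WT by 0.87 (SE 0.20), a fold change of 1.83, Kcnq1ot1 by 0.41 (SE 0.12), Ube3a by 0.38 (SE 0.09) and Nap1l5 by 0.34 (SE 0.11). Dlk1 was lower at -0.36 (SE 0.11), Inpp5f at -0.25 (SE 0.08) and Snrpn at -0.12 (SE 0.04). These 7 members, 4 higher and 3 lower, had an unadjusted p under 0.05, but adjusted p of 0.100 to 0.150 in limma, and 0 members passed after adjustment, as did 0% of all genes. At the unadjusted threshold 10.6% of all genes were higher and 14% lower, so the 4 and 3 members in 38 were not above the shares of all genes. The screening criterion was met by 0 members and 1.22% of all genes. Of the 16 maternally expressed members 14 were lower among exercised WT mice, where 58.4% of all genes were lower, and Ube3a was among the other 2; the median was -0.10, against -0.04 over the 22 paternally expressed members and -0.04 over all genes. With the slide as a block this balance turned, to 11 of 16 maternally expressed members higher and a median of 0.10.

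The 7 named differences between exercised WT and WT shrank or turned sign with that block. It left Peg12 at 0.06, Ube3a at 0.01, Kcnq1ot1 at 0.08, Dlk1 at 0.00, Inpp5f at -0.01, Nap1l5 at -0.15 and Snrpn at -0.04. Their SE in that fit ran from 0.07 for Snrpn to 0.21 for Peg12, so values near 0 do not show that a difference is absent. In the blocked fit only Cdkn1c had an unadjusted p under 0.05, at 0.49 (adjusted p = 0.804 in limma), where 5.99% of all genes passed in either direction. For exercised WT against WT swimming and slide cannot be told apart beyond what KO replicate 3 carries. Without KO replicate 3 in the fit, Peg12, Ube3a, Kcnq1ot1, Nap1l5, Dlk1 and Inpp5f had an adjusted p under 0.05 in limma, as 2654 of all genes did.

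**Figure D3:**
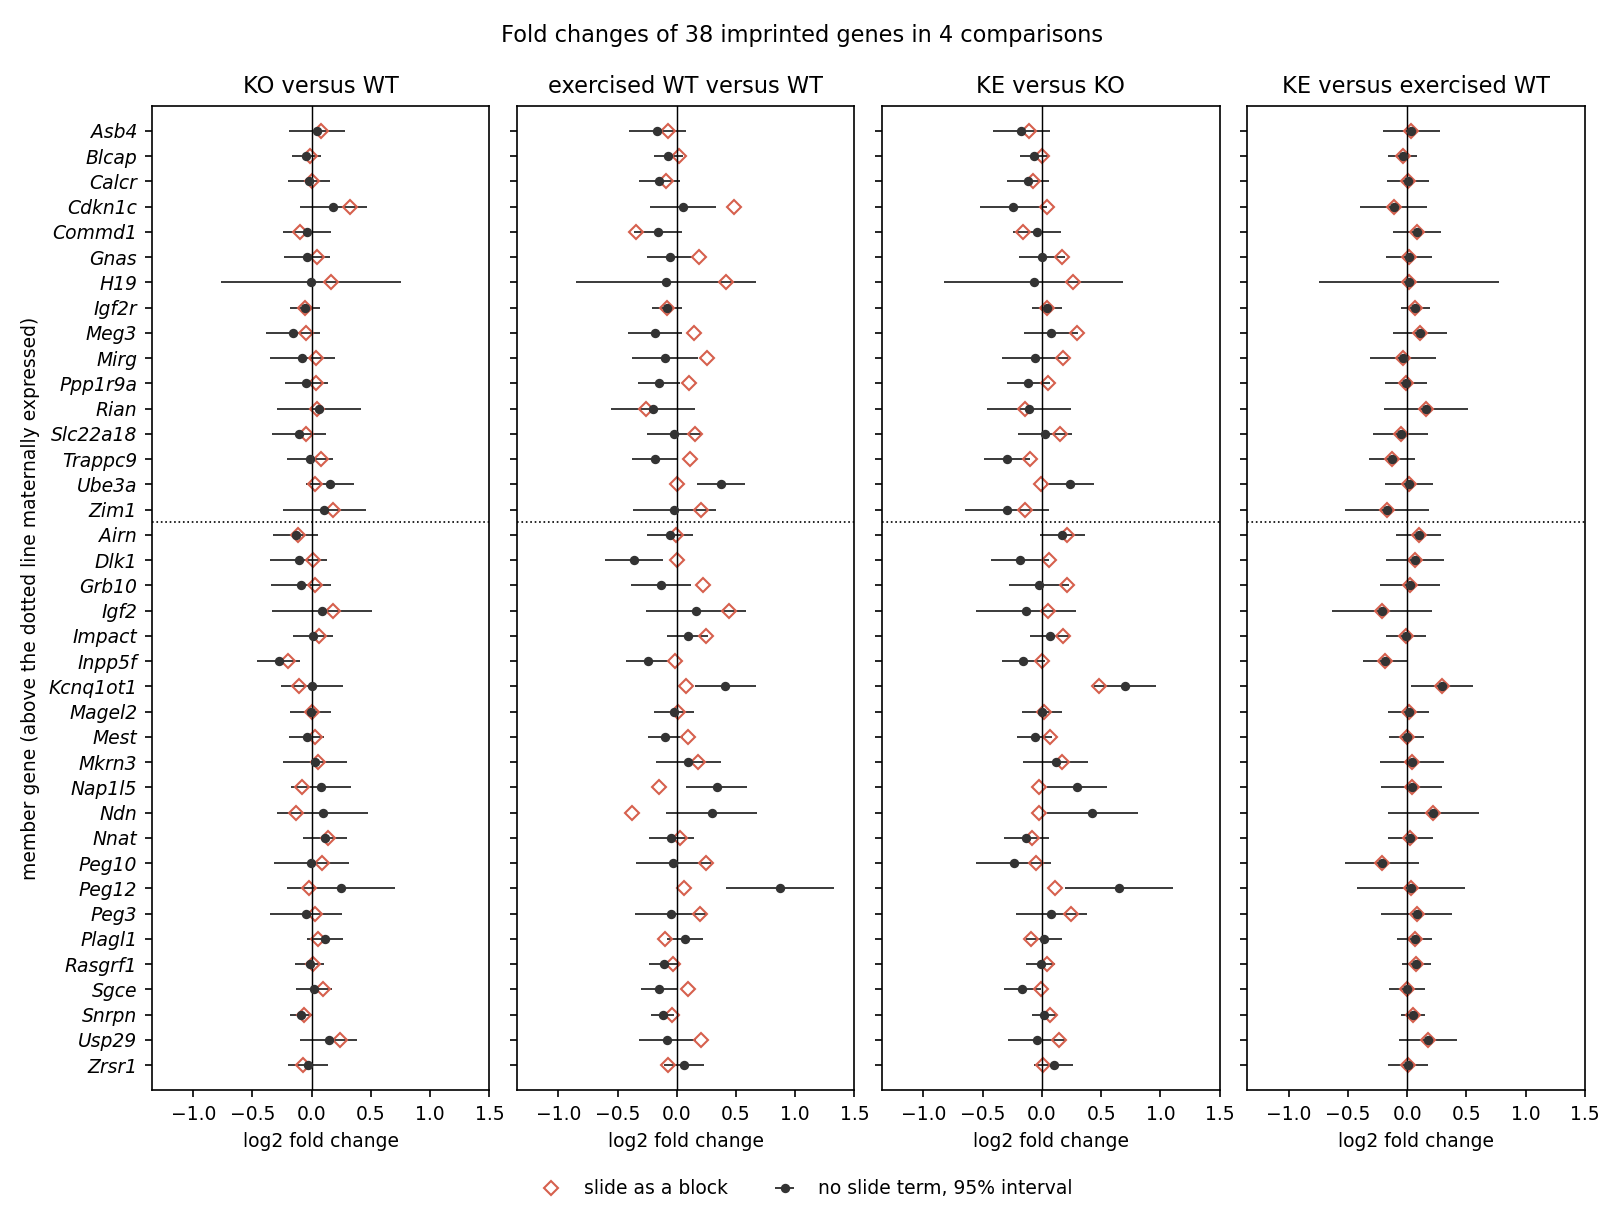
Log2 fold changes of the 38 tested imprinted genes in the comparisons of groups, with 95% intervals from the limma fit, maternally and paternally expressed members apart; a second mark gives the value with the slide as a block. Peg12, Kcnq1ot1, Ube3a, Nap1l5 and Ndn lie right of 0 in exercised WT against WT and KE against KO, and of these Kcnq1ot1 is at 0.48 with the block in KE against KO.

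In knockout mice, KE against KO again had Kcnq1ot1 and Peg12 at the top. Kcnq1ot1 was higher in KE by 0.70 (SE 0.12, 95% interval 0.44 to 0.96), a fold change of 1.63, with an adjusted p of 0.0995 in limma. Peg12 was higher by 0.65 (SE 0.20), Ndn by 0.43 (SE 0.17), Nap1l5 by 0.30 (SE 0.11) and Ube3a by 0.24 (SE 0.09), while Trappc9 was lower at -0.30 (SE 0.09) and Sgce at -0.16 (SE 0.07). These are the 5 higher and 2 lower members of 38 at an unadjusted p under 0.05, where 6.95% of all genes were higher and 13.5% lower. After adjustment 0 members and 0% of all genes passed, and on gene averages the screening criterion was met by 0 members and 0.651% of all genes. Single probes can differ from this: Kcnq1ot1 probe A_55_P2726757 alone had 1.06, over 2-fold. Of the 4 tested Kcnq1ot1 probes 3 were higher at an unadjusted p under 0.05 in limma. In the Prader-Willi and Angelman region the 6 tested members ran from 0.00 for Magel2 to 0.65 for Peg12; 5 of 6 were above 0 with 75th percentile scaling, normexp or the authors' normalized values, and 4 of 6 with the slide as a block. The median was -0.07 over maternally and 0.01 over paternally expressed members, against -0.04 over all genes.

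KO replicate 3 decided most of these values. With the slide as a block, which sets the KE mice against that mouse alone and takes the spread from the other groups, Kcnq1ot1 had 0.48 (adjusted p = 0.428 in limma), while Peg12 had 0.11, Ndn -0.03, Nap1l5 -0.02, Ube3a -0.01, Trappc9 -0.10 and Sgce -0.01. Kcnq1ot1 and Meg3 (0.30, against 0.08 without the block, with KO replicate 3 its lowest array) were the 2 members with an unadjusted p under 0.05 there, assuming that a lone KO mouse varies like the others, when 8.23% of all genes passed in either direction. Without KO replicate 3, by contrast, 9 members had an adjusted p under 0.05 in limma, among 3934 of all genes: Kcnq1ot1 (0.81), Peg12 (0.92), Ndn (0.65), Nap1l5 (0.46), Ube3a (0.36), Trappc9 (-0.39), Cdkn1c (-0.39), Dlk1 (-0.31) and Sgce (-0.24). Without KO replicate 2 the count at an unadjusted p under 0.05 was 3.

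The exercised groups could be compared on the same slide. In KE against exercised WT, Kcnq1ot1 was higher by 0.29 (SE 0.12, 95% interval 0.03 to 0.56) and Inpp5f lower at -0.19 (SE 0.08), and neither passed adjustment (adjusted p = 0.680 and 0.698 in limma). They were the 1 higher and 1 lower member of 38 at an unadjusted p under 0.05, where 2.11% of all genes were higher and 5.03% lower. Without exercised WT replicate 3, the array highest in striatal and cortical markers, Kcnq1ot1 had 0.21, and without KE replicate 1 or 2 it had 0.24 and 0.28, in each case with an unadjusted p over 0.05. Inpp5f had an unadjusted p of 0.0465 in limma, and without exercised WT replicate 3 it had -0.14 with an unadjusted p over 0.05. It was also over 0.05 without WT replicate 1, 2 or 3, KO replicate 2, exercised WT replicate 2 or KE replicate 3. The same held with 75th percentile scaling. Of all genes 0% passed adjustment, and 0 members and 0.192% of all genes met the screening criterion. The block left both values as they were, since all 6 mice lie on slide 2, and with the spread taken within slides 10.4% of all genes had an unadjusted p under 0.05 in either direction. Usp29 came next, at 0.18 (SE 0.11). The values were positive for 26 of 38 members, 9 of 16 maternal and 17 of 22 paternal, where 45.2% of all genes were positive. The medians over maternal and paternal members were 0.01 and 0.03 against -0.01 over all genes. Scaled by the 75th percentile of each array the positive members were 12 of 16 and 18 of 22, and the median over all genes was 0.02.

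Whether swimming acted differently in the 2 genotypes was tested as the interaction, KE minus KO less exercised WT minus WT. Members ran from -0.30 to 0.29, 25 positive and 13 negative, where 47.1% of all genes were positive. With the slide as a block 18 members were positive and 20 negative, where 46.0% of all genes were positive. Without the block 0 members passed after adjustment in limma (0% of all genes). At an unadjusted p under 0.05 also 0 members were higher and 0 lower, where 3.21% of all genes were higher and 4.85% lower, and 0 members met the screening criterion (0.515% of all genes). Snrpn (0.14, SE 0.06), Airn (0.23, SE 0.12) and Meg3 (0.26, SE 0.14) had the smallest p, with adjusted p of 0.629, 0.667 and 0.683. With the slide as a block 3 members had an unadjusted p under 0.05, as 11.1% of all genes did: Kcnq1ot1 at 0.40, Ndn at 0.35 and Cdkn1c at -0.44, with adjusted p of 0.377, 0.436 and 0.319 in limma.

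The members that moved with the slide could be counted directly. For Peg12, Ube3a, Nap1l5 and Kcnq1ot1 all 7 slide 2 arrays were above all 5 slide 1 arrays, and for Dlk1, Sgce, Ppp1r9a and Trappc9 all were below, 4 and 4 of 38 members. Over all genes the shares were 8.53% above and 10.9% below, about those of the members. The difference of KO replicate 3 from KO replicates 1 and 2 and that of exercised WT from WT share no array but both set slide 2 against slide 1. Across the 38 members their Pearson correlation was 0.763, with the same sign in 31, and across all genes it was 0.691, with the same sign in 75.6%. It was 0.372 over the 16 maternally and 0.855 over the 22 paternally expressed members. Genes are not independent replicates, and these coefficients describe the arrays. Cdkn1c was an exception among the larger shifts, with -0.43 on KO replicate 3 and 0.05 in exercised WT against WT.

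**Figure D4:**
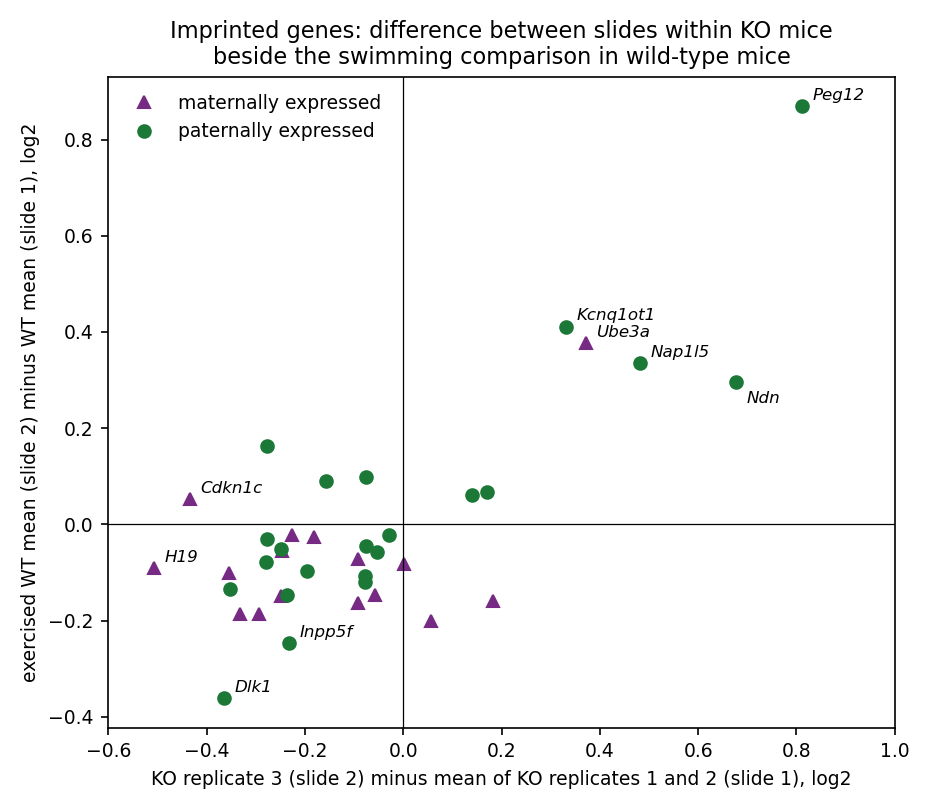
Each point is 1 tested imprinted gene: the log2 difference of KO replicate 3 (slide 2) from KO replicates 1 and 2 (slide 1) on the x axis, and the log2 difference of exercised WT (slide 2) from WT (slide 1) on the y axis; colors give the parental class. Peg12, Nap1l5, Ube3a and Ndn lie at the upper right, and H19 and Cdkn1c at the left near 0 on the y axis.

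Probes of the same gene did not always move together, which bears on the averages above. The 2 central Kcnq1ot1 probes had log2 fold changes of 1.06 (A_55_P2726757) and 0.94 (A_55_P2726560) in KE against KO, and A_55_P2717618 had 0.70. The fourth, A_55_P2408415, had 0.11. With the slide as a block the 4 values came together, at 0.56, 0.40, 0.47 and 0.50, since KO replicate 3 was high for the first 3 and low for A_55_P2408415. In KE against exercised WT, within slide 2, they were 0.78, 0.20, 0.22 and -0.03. The Kcnq1ot1 probe left out, A_52_P534609, was well above background on 1 array.

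Inpp5f rested on a dim and a bright probe. The dim A_55_P2634244, at chr7:135820872-135820931 with a mean level of 5.35, had -0.50 in KO against WT, -0.58 in exercised WT against WT and -0.41 in KE against exercised WT. The bright A_51_P176054, at chr7:135839497-135839556 with 13.45, had -0.05, 0.08 and 0.03. In KE against KO the dim probe had -0.48 and the bright probe 0.17, each with an unadjusted p under 0.05, so the mean of Inpp5f joins probes that did not move together. For Ube3a, A_55_P2912432 and A_52_P584458 had 0.66 and 0.55 in exercised WT against WT and A_55_P2913076 had -0.08. In the same comparison the 2 probes of Mest had -0.34 and 0.14, those of Rasgrf1 ran from -0.49 to 0.19, those of Airn from -0.47 to 0.36 and the 9 of Gnas from -0.56 to 0.51, so the close group means of these genes also hide probes that moved apart. Of 25 members with over 1 tested probe, 15 had probes in both directions in KO against WT, 15 in exercised WT against WT, 12 in KE against KO and 12 in KE against exercised WT.

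**Figure D5:**
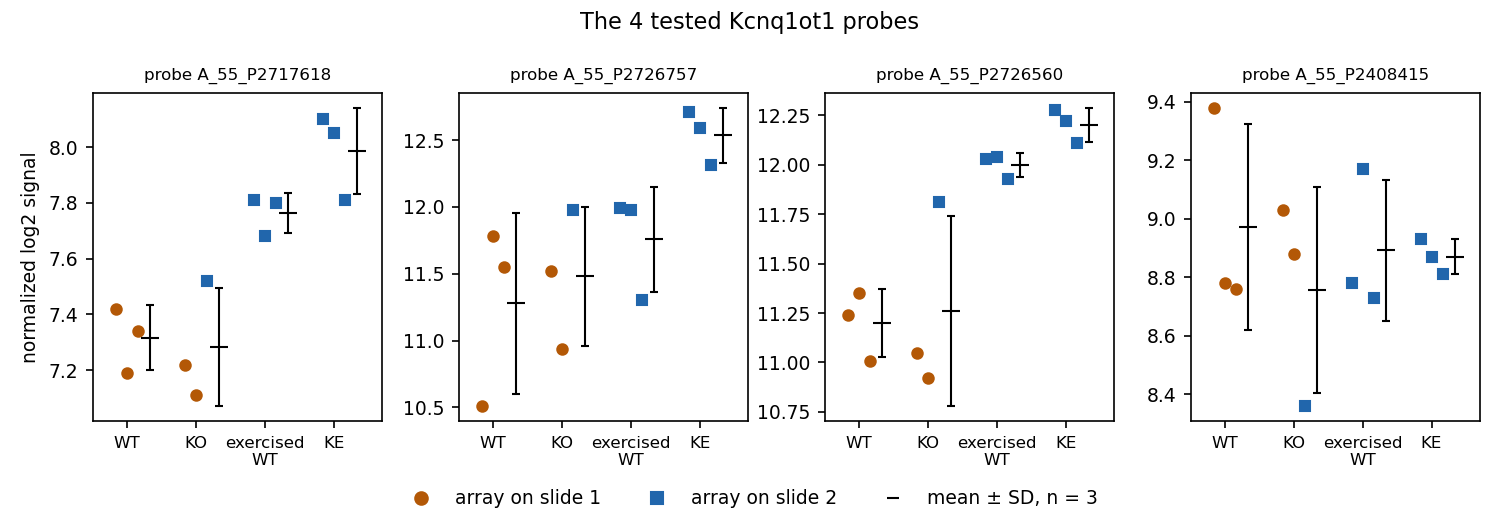
Normalized log2 signal of the 4 tested Kcnq1ot1 probes in each mouse, by group, with mean ± SD (n = 3); circles are arrays of slide 1 and squares arrays of slide 2, and each panel has its own y axis. In 3 probes the KE mice have the highest mean and KO replicate 3 lies above the other KO mice; in A_55_P2408415 KO replicate 3 is the lowest array.

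Neighbouring genes of opposite parental class were set side by side as 10 pairs, without a test. The pairs are not separate, since Ube3a and Peg10 recur in them. Their values had opposite signs in 5 pairs in KO against WT, 3 in exercised WT against WT, 3 in KE against KO, 5 in KE against exercised WT and 6 in the interaction. Of all genes 53.1%, 58.4%, 60.2%, 54.8% and 52.9% were negative in the same order. How often pairs drawn from all genes have opposite signs was not counted. The counts with the slide as a block were 5, 4, 3, 5 and 4. Dlk1 and Meg3 had -0.36 and -0.19 in exercised WT against WT, and 0.00 and 0.15 with the block. Ndn and Ube3a had 0.30 and 0.38 there, and -0.38 and 0.01 with the block, while Snrpn had -0.12 and -0.04. Peg3 and Zim1 had 0.08 and -0.30 in KE against KO, and 0.25 and -0.15 with the block.

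Other imprinted genes and the proteins that write, read or protect imprints were examined as lists. Of 37 further imprinted genes 28 were tested. At an unadjusted p under 0.05, 3 were higher and 0 lower in KO against WT (2.68% and 2.79% of all genes), 4 and 2 in exercised WT against WT (10.6% and 14%) and 0 and 4 in KE against KO (6.95% and 13.5%). In KE against exercised WT the counts were 0 and 2 (2.11% and 5.03% of all genes) and in the interaction 0 and 3 (3.21% and 4.85%). Htr2a, the serotonin 2A receptor gene, had 0.16 in KO against WT, 0.21 in exercised WT against WT and -0.15 in KE against exercised WT. Its interaction was -0.31 (-0.33 with the slide as a block), at an adjusted p of 0.445 in limma. Pon3, a paraoxonase gene of the Peg10 cluster, had an interaction of -0.42 (adjusted p = 0.473; -0.43 with the block), and Ddc, which encodes the decarboxylase of dopamine and serotonin synthesis, had -0.43 in exercised WT against WT (adjusted p = 0.110) and -0.16 with the block. Pon2, another paraoxonase gene, had 0.46 there (adjusted p = 0.102 in limma) and 0.10 with the block. Kcnq1, the gene that Kcnq1ot1 overlaps in antisense, had -0.43 in the interaction (adjusted p = 0.616; -0.46 with the block).

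Of 26 imprint machinery genes 23 were tested, with 0 higher and 2 lower in KO against WT, 0 and 5 in exercised WT against WT, 0 and 6 in KE against KO, 1 and 0 in KE against exercised WT and 2 and 0 in the interaction, again at an unadjusted p under 0.05 and to be read against the same shares of all genes, which were 14% lower in exercised WT against WT and 13.5% lower in KE against KO. Dnmt1, the maintenance DNA methyltransferase, had -0.17 in exercised WT against WT (adjusted p = 0.101 in limma; -0.13 with the block) and 0.14 in KE against exercised WT (adjusted p = 0.636). Zfp57 had -0.29 in KO against WT, -0.30 in exercised WT against WT and 0.43 in the interaction (adjusted p = 0.593), and with the block -0.20, -0.02 and 0.34. Dnmt3a, Eed, Ehmt2, Ezh2, Hells and Arid4a made up the 6 lower in KE than in KO, from -0.40 for Hells to -0.15 for Ehmt2, and with the slide as a block they ran from -0.11 to 0.01. No gene of either list passed after adjustment.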

How the data were processed

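Hypothalamus RNA of 12 mice was hybridized to single-color Agilent arrays, 3 per group, and grouped by the sample labels. The authors deposited the scanner output, whose values are the background-subtracted intensity of each spot from Agilent Feature Extraction 10.7.1.1, and log2 values that they had quantile-normalized over the arrays. Deposited tables of 4 comparisons hold the authors' fold changes and p-values, with 24 columns of sample values in all. None of these tables was used. From the intensity values, outlier spots were left out and arrays were quantile-normalized on the log2 scale. A probe was tested when each of the 3 arrays of some group had it well above background (35230 of 56605). Probes with a symbol were averaged per gene (18266) and fitted in limma (version 3.58.1, under R 4.3.3) with Benjamini-Hochberg adjustment over all genes. Intervals are 95%. Probe positions come from the annotation of the array (mm9) and promoters those of RefSeq GRCm38.p6.

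Members with an unadjusted p under 0.05, or else the 3 smallest, were named, with genes of each imprinted domain. The members and lists were chosen with earlier results of these data known. The fit was tested on simulated data. Alternatives were 75th percentile scaling, normexp (offset 50), the authors' normalized log2 table, other detection filters, the brightest probe, the methods' t-test with Benjamini-Hochberg adjustment, only the groups compared, outlier spots kept, the slide or the replicate number as a block, values within a slide, and each array left out; a fit of each probe was added after seeing the data. The number of arrays limits the precision, and p-values measure the spread between the mice labelled as replicates.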

Additional observations from a re-analysis of the deposited data

How the results depend on the processing

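The count of members past an adjusted p of 0.05 in limma was 0 in each comparison and was also 0 under the alternatives, except for exercised WT against WT with only the groups compared (3: Peg12, Ube3a and Nap1l5, with 5.06% of all genes) and without KO replicate 3 (6, with 14.5%), and for KE against KO without KO replicate 3 (9, with 21.5%). At an unadjusted p under 0.05 the count in KO against WT was 1, and became 0 with normexp or the brightest probe and 2 with the methods' t-test or the slide block. In exercised WT against WT it was 7, and became 11 with normexp or the brightest probe, 1 with the slide block and 18 with each probe fitted on its own. In KE against KO it was 7, and became 3 with only the groups compared, 2 with the methods' t-test or the slide block, 4 within slide 2 and 11 with each probe fitted on its own. In KE against exercised WT it was 2, and became 1 with 75th percentile scaling or the methods' t-test and 0 without a detection filter or with the brightest probe. In the interaction it was 0, and became 2 with 75th percentile scaling, 1 with normexp, without a detection filter or with each probe fitted on its own, and 3 with the slide block. The labels' replicate numbers do not pair the mice (deviations of same-numbered mice correlated between -0.18 and 0.23); the replicate block gave counts at an unadjusted p under 0.05 of 1, 8, 9 and 1 in KO against WT, exercised WT against WT, KE against KO and KE against exercised WT, and 2 in the interaction, and it changed no adjusted call.

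The slide block moved the median log2 fold change in exercised WT against WT to 0.104 over maternal and 0.0432 over paternal members, and in KE against KO, as within slide 2, to 0.0196 and 0.0544. The brightest probe gave 0.0199 over paternal members in exercised WT against WT, and 75th percentile scaling 0.0884 over paternal members in the interaction. With the slide block Dlk1 (0.0028) and Nap1l5 (-0.146) turned sign in exercised WT against WT, and Ube3a (-0.0109), Nap1l5 (-0.0237) and Ndn (-0.0264) in KE against KO, also within slide 2. With the brightest probe Inpp5f turned to 0.0813 in exercised WT against WT and 0.0334 in KE against exercised WT, and Usp29 to -0.0271 in KE against exercised WT. The cause was not tested.

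Leaving out each array in turn gave counts at an unadjusted p under 0.05 of 1 to 2 in KO against WT, 6 to 12 in exercised WT against WT, 3 to 11 in KE against KO, 1 to 2 in KE against exercised WT and 0 to 3 in the interaction, and adjusted counts of 0 to 6 in exercised WT against WT and 0 to 9 in KE against KO. The medians over maternal and paternal members ran from -0.056 to 0.0396 and -0.0234 to 0.0282 in KO against WT, -0.131 to -0.0623 and -0.0925 to 0.0167 in exercised WT against WT, -0.116 to -0.0483 and -0.0092 to 0.029 in KE against KO, -0.032 to 0.0333 and 0.0275 to 0.0486 in KE against exercised WT, and -0.0371 to 0.0641 and -0.0011 to 0.083 in the interaction. Members near background (Rtl1, Phlda2) have no level, and dim probes such as those of Mkrn3 and H19 limit their genes.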
